A study of Mus musculus with 8 samples.

Results

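The blood vessels of the pituitary were followed through 35 genes known from endothelial cells, taken by their symbols as 35 of the 49585 gene rows measured in each library. RNA came from whole pituitary of wild-type C57BL/6 mice, either young (aged 2 to 3 months) or old (18 to 24 months), with 4 samples per age and the polyA fraction sequenced. The sources give no other allele or agent for these 8 samples, do not state their sex, and describe removal of blood by perfusion before the gland was taken. Neither the labels nor the paper's text says that each sample was a separate mouse, so p-values measure only the spread between these samples, which may be technical. Whole gland averages over all its cell types, and fewer endothelial cells cannot be told apart from less RNA per endothelial cell.

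The anterior pituitary receives hypothalamic releasing factors through portal vessels, which break up into capillaries whose endothelium is pierced by fenestrae. Plvap forms the diaphragms of these fenestrae, vascular endothelial growth factor (VEGF) signalling maintains fenestrated capillaries, and the angiopoietin and Tie receptor system, apelin and SOX and ETS transcription factors take part in vessel growth and stability. Most of the 35 genes are active in endothelium of many organs and none tells portal vessels from the gland's other vessels, so they are called endothelial genes here.

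All 35 genes were detected in all 8 libraries, and Plvap stood far above the other 34. Each value is an FPKM, the fragments of a gene scaled to its exon length and to the library total, as the authors deposited it. FPKM allows levels of different genes to be compared, and the old-to-young difference of each gene was tested with limma on log2(FPKM + 0.1), adjusted by Benjamini-Hochberg over 23498 genes. Because 0.1 is added, a fold change on this log2 scale is smaller than the true one for genes near that level. Library numbers are those of the labels, and values in a row follow libraries 1 to 4.

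Sox18 was the 1 endothelial gene that rose in old pituitary with an adjusted p under 0.05 in limma, and none of the 35 fell. Among all genes tested, 1.86% were called higher and 0.472% lower, so 1 of 35 was near the background. At an unadjusted p under 0.05, 4 of the 35 were higher in limma (Sox18, Clec14a, Esam and Flt4), where 18.0% of all genes were, and 2 were lower (Aplnr and Cldn5), where 3.79% were. On recovered fragments, voom called 3 higher (Sox18, Clec14a and Esam), against 6.11% of genes, and 1 lower (Aplnr), against 1.52%. The other 29 genes passed none of these thresholds.

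The 35 genes had a median log2 fold change, old minus young, of 0.09, and the 23498 genes one of 0.15. Of the 35, 23 had a log2 fold change above 0 and 12 below, while 15 lay above the all-gene median and 20 below it. For 23 of the 35 the log2 fold change was within 0.25 of 0. Scaling by median-of-ratios moved the all-gene median to 0.01 and that of the endothelial genes to -0.06, with 15 above 0 and 20 below. The same scaling turned the calls over all genes from 436 higher and 111 lower into 213 and 217. Their position relative to all genes stayed similar, since the median of the 35 was 0.06 lower than that of all genes with the deposited values and 0.07 lower after rescaling.

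**Figure D1:**
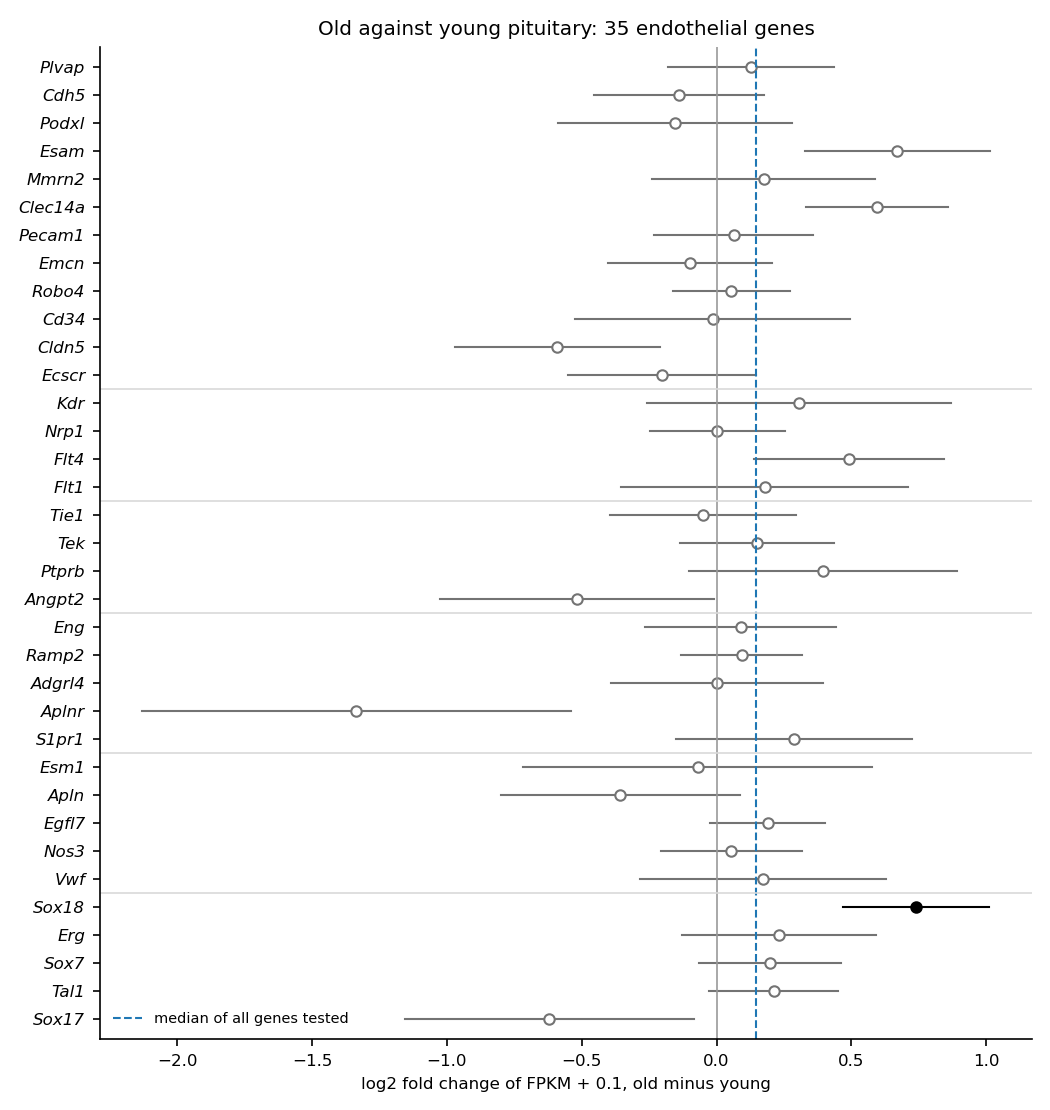
Log2 fold change of FPKM + 0.1, old minus young, for the 35 endothelial genes in 6 role groups separated by grey lines. Circles are limma estimates, bars run 2 standard errors either way, the filled black circle passed an adjusted p of 0.05, and the dashed line is the median of all genes tested at 0.15. Sox18 at 0.74 is the filled circle, and Aplnr at -1.34 lies farthest to the left.

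Libraries of the same age differed from each other, and the values touch the endothelial genes as a group. Young libraries 1 and 2 and old library 1 had summed FPKM of 5 red blood cell genes between 13.0 and 15.9, whereas the other 5 libraries had 76.9 to 124. These 3 libraries also carried the highest shares of fragments on ribosomal RNA repeat genes, 38.1 to 40.3% against 33.8 to 35.8% in the other 5. Mean log2(FPKM + 0.1) over the 35 genes was 1.24, 1.11, 1.46 and 1.55 in young and 1.22, 1.33, 1.42 and 1.54 in old libraries. The 3 libraries with little red blood cell signal therefore had the 3 lowest means. With library totals taken without hormone and ribosomal RNA repeat genes, the means were 1.36, 1.22, 1.47 and 1.55 in young and 1.23, 1.28, 1.29 and 1.46 in old libraries. The part of these library features in the age differences was not tested, and the labels give no batch.

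**Figure D2:**
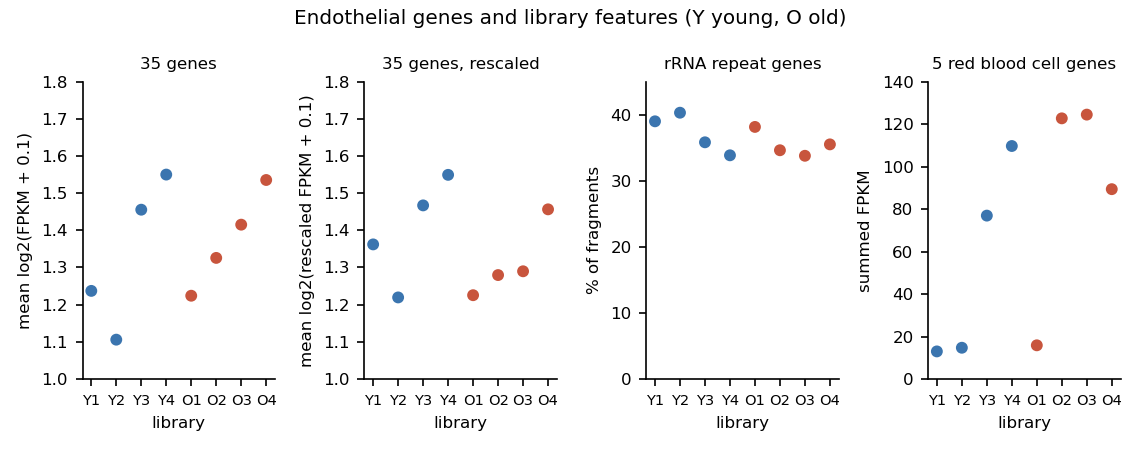
Mean log2(FPKM + 0.1) of the 35 endothelial genes, the same mean after rescaling to library totals without hormone and ribosomal RNA repeat genes, the percent of fragments on ribosomal RNA repeat genes, and the summed FPKM of 5 red blood cell genes, each point 1 library (Y young, O old). Libraries Y1, Y2 and O1 have the 3 lowest means at left, the highest ribosomal RNA shares and red blood cell sums of 13.0 to 15.9 FPKM.

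The same libraries recurred gene by gene. Among the 4 young libraries, library 1 was the lowest for 14 of the 35 genes and library 2 for 18, while library 4 was the highest for 22. Among the old libraries, library 1 was the lowest for 22 genes and library 4 the highest for 19. Some genes went against that order in part. Young library 1 was the highest for Angpt2, Cldn5, Esm1 and Sox7, and young library 2 for Sox18 (1.85 FPKM). Old library 1 was the highest for 5 genes, among them Aplnr (2.47 FPKM). Among young libraries Sox18 was still lowest in library 1, and Aplnr in library 2. The coefficient of variation had a median of 22.2% over the 35 genes in young and 14.6% in old libraries.

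Levels per length spanned from Plvap down to Sox17. Plvap stood at 45.2, 47.1, 53.8 and 64.2 FPKM in young and at 48.4, 52.7, 64.6 and 63.5 FPKM in old libraries. Its lowest library exceeded the highest value of any other of the 35 genes, 14.2 FPKM for Esm1 in young library 1. Next by mean level came Eng, Ramp2, Esm1, Kdr and Cdh5, whose ranges over the 8 libraries overlapped one another. Of the 35 genes, 27 had a mean of at least 1 FPKM, and the lowest 3 were Tal1, Vwf and Sox17. Vwf, the clotting factor stored in endothelium of larger vessels, averaged 0.117 ± 0.0329 FPKM (SD, n = 4) in young and 0.151 ± 0.0807 in old libraries (SD, n = 4).

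**Figure D3:**
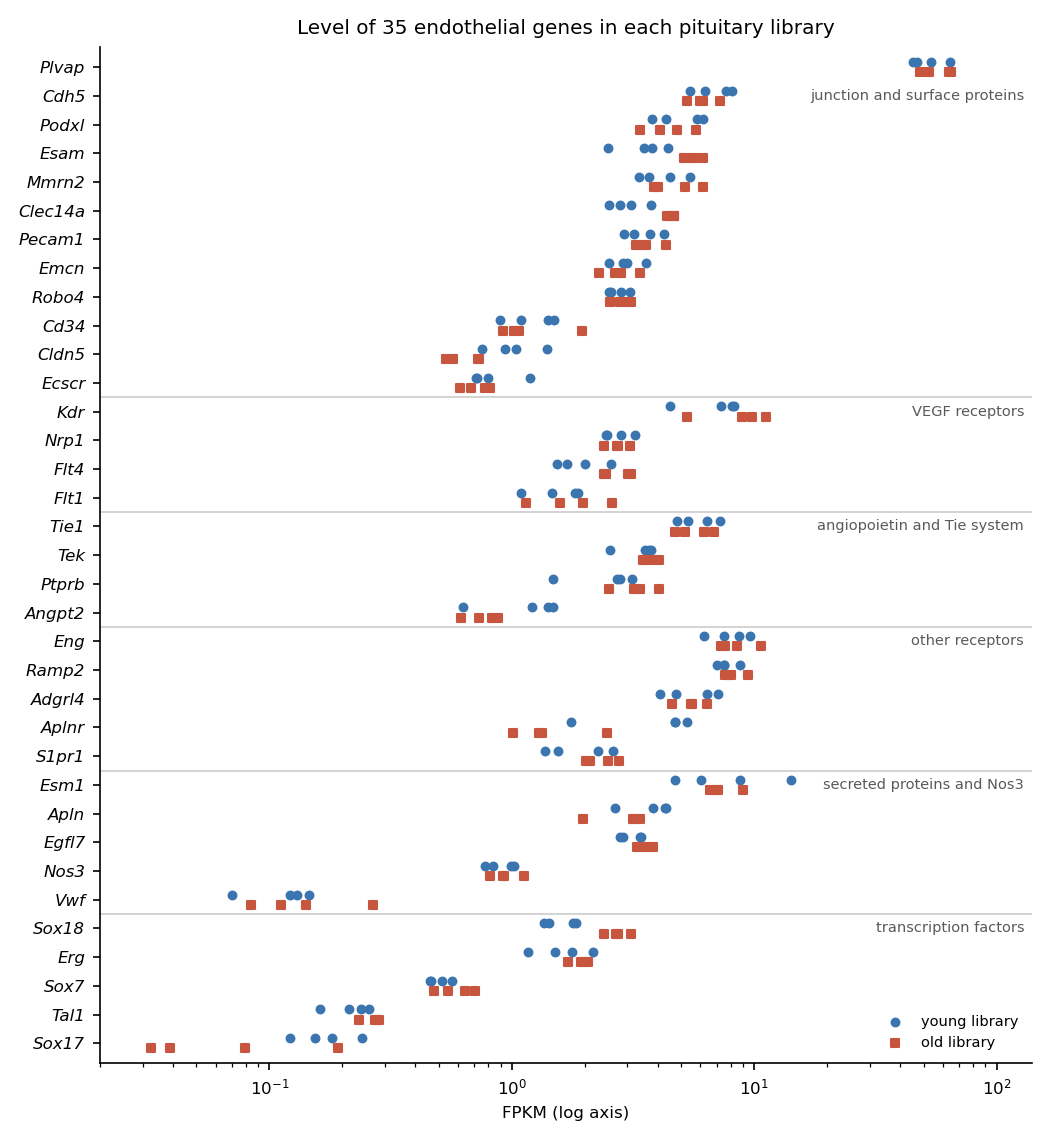
FPKM of the 35 endothelial genes on a log axis, each point 1 library (circles young, squares old), grouped by role with grey lines between groups. Plvap lies at 45.2 to 64.6 FPKM, and for Esam, Clec14a and Sox18 all squares lie to the right of all circles, while for Cldn5 all squares lie to the left.

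Among the 5 transcription factors, the close relatives Sox7, Sox17 and Sox18 were measured side by side, and Sox18 alone passed the threshold in limma. Whether the 3 differ from each other in their age difference was not tested. Sox18, a SOX factor known for vessel and lymphatic development, lies on chromosome 2 (181669836 to 181671640, minus strand, GRCm38; ENSMUSG00000046470.5). Sox18 stood at 1.36, 1.85, 1.42 and 1.79 FPKM in young and at 2.68, 2.74, 2.40 and 3.11 FPKM in old libraries. Every old library was above every young one, as for 13.4% of all genes tested. Its mean rose 1.70-fold, from 1.60 ± 0.248 to 2.73 ± 0.289 FPKM (SD, n = 4 per age), with a log2 fold change of 0.74 (SE 0.14, adjusted p = 0.0409 in limma). Behind these values were 183 fragments over the 4 young and 315 over the 4 old libraries.

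The direction of the Sox18 difference was the same in all 19 alternative settings, but its adjusted p passed 0.05 in 6 of them. It was 0.0871 in limma after median-of-ratios scaling, 0.0829 with library totals lacking hormone and ribosomal RNA repeat genes, and 0.215 with libraries centred on 23 other endothelial genes. Leaving out 1 library lost the call for 7 of the 8 libraries, all but young library 2, with limma adjusted p between 0.0449 and 0.115. In the 5 libraries of higher red blood cell signal the log2 fold change was 0.74 (limma adjusted p = 0.237).

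Sox17, a regulator of arterial endothelium, stood at 0.122, 0.181, 0.154 and 0.241 FPKM in young and at 0.0391, 0.0793, 0.0326 and 0.192 FPKM in old libraries. Old library 4 lay within the young range and the other old libraries below it. The log2 fold change was -0.62 (SE 0.27, adjusted p = 0.231 in limma) from only 59 young and 29 old fragments, and 16.8% of its exon bases overlap the antisense gene Gm37587. Sox7 averaged 0.501 ± 0.0492 and 0.593 ± 0.103 FPKM (SD, n = 4 per age), a log2 fold change of 0.20 whose bounds of 2 standard errors were -0.06 and 0.46. The ratio of Sox18 to Sox17, chosen after the values were seen, was 7.43 to 11.2 in young and 16.2 to 73.6 in old libraries. Because the 2 genes had already been seen to differ in opposite directions, this ratio adds no separate evidence. Its denominator rested on 3 fragments each in old libraries 1 and 3. Erg, the ETS factor that keeps endothelial genes active, averaged 1.66 ± 0.419 and 1.92 ± 0.154 FPKM, and Tal1, shared with blood-forming cells, 0.218 ± 0.0412 and 0.266 ± 0.0216 FPKM (SD, n = 4 per age), and both overlapped between ages.

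Of the 12 junction and surface proteins, 2 had old values wholly above the young ones, where 13.4% of all genes tested did, and 1 wholly below, where 2.06% did. None of the 12 passed the adjusted threshold in limma. Clec14a, an endothelial lectin of the cell surface on chromosome 12 (58264720 to 58269290, minus strand; ENSMUSG00000045930.3), stood at 2.51, 3.09, 2.79 and 3.76 FPKM in young and at 4.37, 4.68, 4.65 and 4.67 FPKM in old libraries. The 4 old values were close together, with a coefficient of variation of 3.32% against 17.6% in young libraries. Its log2 fold change was 0.60 (SE 0.13, adjusted p = 0.0608 in limma), and 5 of 19 alternatives called it. Mmrn2, an extracellular matrix protein that binds Clec14a, averaged 4.24 ± 0.942 and 4.81 ± 1.08 FPKM (SD, n = 4 per age), with overlapping ages and a log2 fold change of 0.18 (bounds -0.24 and 0.59).

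Esam, an adhesion molecule of endothelial tight junctions and platelets, lies on chromosome 9 (37528078 to 37538319, plus strand; ENSMUSG00000001946.14). Esam stood at 3.51, 2.50, 3.77 and 4.41 FPKM in young and at 5.48, 5.66, 6.15 and 5.13 FPKM in old libraries. All old values exceeded the young maximum, and the log2 fold change was 0.67 (SE 0.17, adjusted p = 0.0868 in limma), with a call in 2 of 19 alternatives. None of the 3 platelet genes tested passed the threshold in limma and 0 had an unadjusted p under 0.05. Of these 3, 1 had old values wholly below young ones, as for 2.06% of all genes tested. Of the 6 listed, Gp9 was at 0 in every library, and the summed platelet FPKM was 0.935 to 1.34 in young and 0.924 to 1.32 in old libraries. The part of platelets in the Esam values was not tested.

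Cldn5, the main claudin of endothelial tight junctions, lies on chromosome 16 (18776847 to 18778262, plus strand; ENSMUSG00000041378.2) and went the other way. It stood at 1.40, 0.752, 0.935 and 1.04 FPKM in young and at 0.571, 0.536, 0.734 and 0.728 FPKM in old libraries. Every old value was below every young one, as for 2.06% of all genes tested, though young library 2 exceeded old library 3 by only a small step. The log2 fold change was -0.59 (SE 0.19, adjusted p = 0.137 in limma), and none of its 18 alternatives called it. The ratio of Esam to Cldn5, chosen after both were seen to differ, was 2.51 to 4.22 in young and 7.04 to 10.6 in old libraries. Because both genes already lacked overlap, in opposite directions, the ratio could not overlap either and adds no separate evidence.

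For the other 9 junction and surface genes, log2 fold changes lay between -0.20 (Ecscr) and 0.18 (Mmrn2). Cdh5, the VE-cadherin of adherens junctions, stood at 6.26, 5.44, 8.09 and 7.62 FPKM in young and at 5.31, 6.00, 6.16 and 7.22 FPKM in old libraries. Pecam1, the adhesion molecule widely used to stain vessels, stood at 2.90, 3.20, 3.72 and 4.25 FPKM in young and at 3.25, 3.58, 3.50 and 4.32 FPKM in old libraries. Both overlapped between ages, with bounds of 2 standard errors on the log2 fold change of -0.46 and 0.18 for Cdh5 and of -0.23 and 0.36 for Pecam1. Plvap had bounds of -0.18 and 0.43, and Robo4, a receptor that stabilises vessels, had -0.16 and 0.27. Podxl, a sialomucin of the luminal surface, had -0.59 and 0.28, and Emcn, a sialomucin of capillaries and veins, had -0.40 and 0.21. Cd34, a sialomucin also found on blood stem cells, had 1 high old library (1.94 FPKM in old library 3 against 0.920 to 1.07 in the other old libraries).

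Median-of-ratios scaling left the same 4 genes without overlap, Sox18, Clec14a and Esam above and Cldn5 below. Under that scaling 5.81% of all genes tested lay wholly above and 5.62% wholly below.

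**Figure D4:**
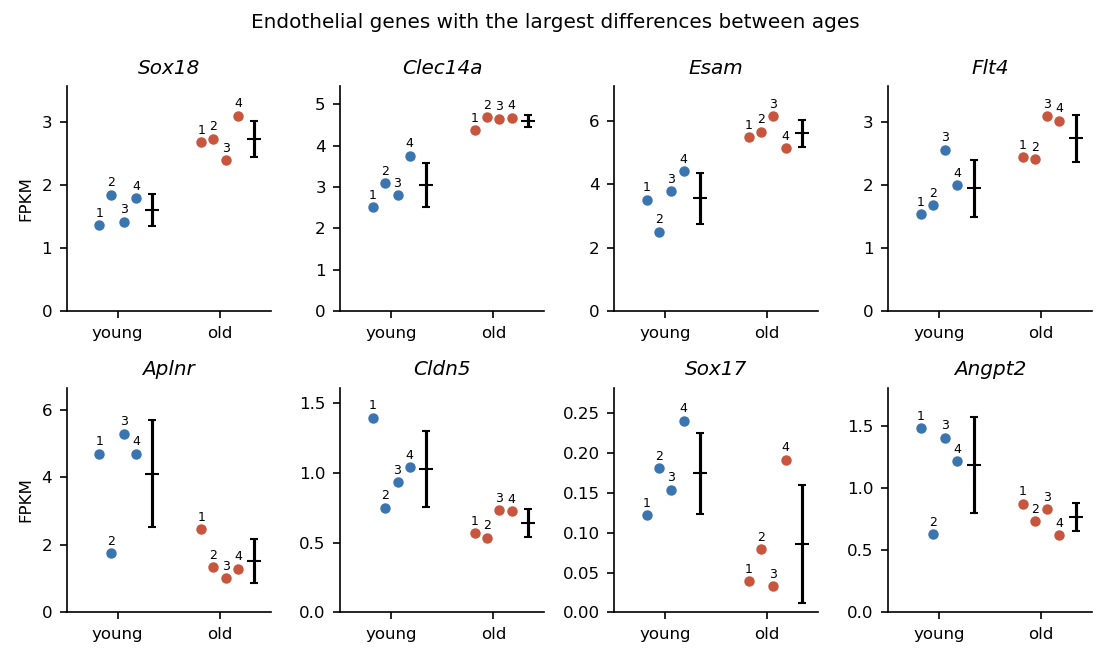
FPKM of 8 endothelial genes in each library, numbered by replicate, with the mean and SD of the 4 libraries of each age as black bars. Sox18, Clec14a and Esam have all old points above all young ones, Cldn5 has all below, and young library 2 lies apart from the other young points for Aplnr (1.76 FPKM) and Angpt2 (0.631 FPKM).

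Aplnr, the G protein-coupled receptor for apelin, differed most in size between the ages. On chromosome 2 (85136225 to 85139923, plus strand; ENSMUSG00000044338.9), it stood at 4.70, 1.76, 5.29 and 4.70 FPKM in young and at 2.47, 1.33, 1.01 and 1.30 FPKM in old libraries. Young library 2 lay within the old range, and the other 3 young libraries lay above all old ones. Its mean was 4.11 ± 1.59 FPKM in young and 1.53 ± 0.644 FPKM in old libraries (SD, n = 4 per age), and the log2 fold change was -1.34 (SE 0.40, adjusted p = 0.118 in limma) from 1115 young and 394 old fragments. Without young library 2 the log2 fold change was -1.69 and the limma adjusted p 0.0421, and in voom with all 8 libraries the adjusted p was 0.0148. In the 5 libraries of higher red blood cell signal the log2 fold change was -1.96 with a limma adjusted p of 0.0571. Only 2 of 19 alternatives called Aplnr, the one without young library 2 and voom. Leaving out 1 library in turn gave limma adjusted p between 0.0421 and 0.248.

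Apln, the apelin precursor secreted by endothelial tip cells, stood at 3.82, 2.66, 4.34 and 4.27 FPKM in young and at 1.97, 3.38, 3.20 and 3.18 FPKM in old libraries. The ages overlapped through young library 2, and the log2 fold change was -0.36 (SE 0.22, adjusted p = 0.383 in limma). Apela, the other apelin receptor ligand, was under the minimum mean of 0.1 FPKM. The other 4 receptors outside the VEGF and Tie systems overlapped between ages. Eng, a co-receptor for bone morphogenetic proteins of the TGF-beta family, had a log2 fold change of 0.09 (bounds -0.26 and 0.44), Ramp2, the adrenomedullin receptor partner, 0.09 (bounds -0.13 and 0.32), and the adhesion receptor Adgrl4 0.00 (bounds -0.39 and 0.39). S1pr1, the sphingosine 1-phosphate receptor of vessel barriers, had 0.29 (bounds -0.15 and 0.72). Of Ramp2's exon bases 33.4% also belong to Vps25, so its fragments are uncertain.

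None of the 4 VEGF receptors passed the adjusted threshold in limma, and their log2 fold changes were 0.00 to 0.49 with the deposited values and -0.14 (Nrp1) to 0.35 (Flt4) after median-of-ratios scaling. Flt4, the receptor for VEGF-C and VEGF-D that is also active in fenestrated capillaries, stood at 1.54, 1.69, 2.57 and 2.00 FPKM in young and at 2.44, 2.41, 3.10 and 3.03 FPKM in old libraries. Young library 3 overlapped the old range, and the log2 fold change was 0.49 (SE 0.18, adjusted p = 0.167 in limma). Kdr, the main signalling receptor for VEGF-A, stood at 4.50, 7.28, 8.27 and 8.08 FPKM in young and at 5.30, 8.90, 9.76 and 11.2 FPKM in old libraries. In both ages library 1 was the lowest for Kdr, and the log2 fold change of 0.31 had bounds of -0.26 and 0.87. Flt1, which holds VEGF-A without strong signalling, had 0.18 (bounds -0.35 and 0.71), and the co-receptor Nrp1 had 0.00 (bounds -0.25 and 0.25).

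Neither the receptors nor the ligand of the angiopoietin and Tie system passed the threshold in limma, and none had an unadjusted p under 0.05. Tek (Tie2) averaged 3.38 ± 0.572 and 3.73 ± 0.259 FPKM, and its relative Tie1 5.95 ± 1.08 and 5.73 ± 0.966 FPKM (SD, n = 4 per age). Ptprb, the phosphatase that restrains Tek, had a log2 fold change of 0.40 (bounds -0.10 and 0.89), with young library 1 the lowest at 1.48 FPKM. Angpt2, the ligand that can act against Tek activation, stood at 1.48, 0.631, 1.41 and 1.22 FPKM in young and at 0.875, 0.733, 0.830 and 0.620 FPKM in old libraries. Young library 2 lay within the old range and the other 3 young libraries above all old ones, the same arrangement as for Aplnr. Its log2 fold change was -0.52 (SE 0.25, adjusted p = 0.283 in limma), and -0.77 without young library 2 (limma adjusted p = 0.0518).

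Among the secreted proteins and Nos3, none passed the threshold in limma. Esm1 (endocan), a tip cell proteoglycan, stood at 14.2, 4.72, 6.05 and 8.76 FPKM in young and at 9.01, 7.07, 7.05 and 6.54 FPKM in old libraries. Its young coefficient of variation of 49.9% was the highest of the 35 genes in young libraries, set by young library 1. Egfl7, an endothelial matrix protein, averaged 3.11 ± 0.331 and 3.56 ± 0.226 FPKM, and Nos3, the endothelial nitric oxide synthase, 0.906 ± 0.119 and 0.945 ± 0.129 FPKM (SD, n = 4 per age). Exons of other genes overlap 11.2% of the Egfl7 bases and 32.3% of the Nos3 bases, and whether fragments were counted by strand is not given in the sources used here.

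Lists of ligands, partners and other endothelial genes gave few calls. Of 19 tested ligands and co-receptors of these receptors, none was called by limma, with 4 higher and 3 lower at an unadjusted p under 0.05. Over all genes tested, 18.0% were higher and 3.79% lower at that threshold. The highest by level were Angpt1, the Tek-activating ligand, at 18.6 ± 4.80 and 21.3 ± 2.19 FPKM, and Plpp3, a lipid phosphatase, at 11.9 ± 2.33 and 10.3 ± 2.13 FPKM (SD, n = 4 per age). Of 23 other endothelial genes, 1 rose in limma and none fell, where 1.86% of all genes tested were called higher and 0.472% lower. Their median log2 fold change was 0.06, and that of all genes tested was 0.15. The gene that rose was Thbd (thrombomodulin), an anticoagulant receptor also made by myeloid cells, at 4.01 ± 0.410 FPKM in young and 9.55 ± 2.80 in old libraries (SD, n = 4 per age, log2 fold change 1.19, adjusted p = 0.0344 in limma). None of 12 junction partners and none of 6 genes of caveolae was called by limma, with 1 higher and 1 lower in each list at an unadjusted p under 0.05.

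Some markers of other cells moved with age beside these genes. For all 8 macrophage genes the lowest old value exceeded the highest young value, as for 13.4% of all genes tested. Of these 8 genes 1 (C1qb) was called by limma, and their summed FPKM was 29.6 to 47.1 in young and 59.9 to 81.0 in old libraries. Of 7 mesenchymal genes, all with log2 fold changes below 0, only Col1a1 was called (log2 fold change -1.55, limma adjusted p = 0.0107). Col1a2, the highest of them by level, had a log2 fold change of -0.07 (SE 0.20) and overlapped between ages. Among all genes tested, limma called 1.86% higher and 0.472% lower. Of 10 pericyte and smooth muscle genes none was called by limma, with 2 higher and 1 lower at an unadjusted p under 0.05. Over all genes tested, 18.0% were higher and 3.79% lower at that threshold. Of 7 hormone genes 2 fell in limma, the growth hormone gene Gh (log2 fold change -1.36, limma adjusted p = 0.00765) and Lhb, the beta subunit of luteinizing hormone (log2 fold change -0.76, limma adjusted p = 0.0440). Both had old values wholly below young ones, as for 2.06% of all genes tested. The other 5 hormone genes had log2 fold changes above 0 and were not called. Their highest was 0.95 for Fshb, named after its value was seen (limma adjusted p = 0.303). Nrp1, Cd34, Tal1 and Aplnr are known from some of these cells as well as from endothelium, and the part of other cells in their values was not tested. Of 5 lymphatic genes, Ccl21a was listed at 0 in all 8 libraries, while Reln averaged 14.4 ± 10.4 and 18.7 ± 8.87 FPKM, Prox1 4.49 ± 0.519 and 4.25 ± 0.193 FPKM, Pdpn 2.19 ± 0.695 and 2.05 ± 0.101 FPKM, and Lyve1 0.0800 ± 0.0315 and 0.195 ± 0.0852 FPKM (SD, n = 4 per age). These 5 genes were named after their values were seen, limma called none of the 4 tested, and 1 (Lyve1) was higher at an unadjusted p under 0.05. Other cells of the gland can express lymphatic genes too, and which cells gave this signal was not tested.

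RefSeq promoter windows (250 bases before to 50 after a transcription start, GRCm38.p6) were matched by symbol for 18 of the 35 genes, giving 23 windows. These windows are described because several of the genes are known targets of the ETS factor Erg and of SOX factors. Letters were searched on both strands in the 23 windows and in all 32851 windows of the same length. The ETS core CAGGAAG was in 7 of 23 windows (30.4%) and in 13.3% of all windows. Those 7 belonged to Apln, Cd34, Egfl7, Emcn, Erg and Robo4, with Egfl7 counted more than once. The longer ETS motif ACAGGAAGT, which contains the core, was in 1 of 23 and in 1.03%. The SOX letters ACAAAG were in 4 of 23 (17.4%) and in 18.7% of all, and the GATA letters AGATAA in 3 of 23 (13.0%) and 11.2% of all.

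The 4 windows below are shown because Clec14a and Cldn5 are the genes without overlap between ages that have a window, in opposite directions, and because Apln and Robo4 are examples with the ETS core. Capitals mark a motif, written as its reverse complement where it lies on the opposite strand. Clec14a (chr12:58269209-58269508, minus strand) and Cldn5 (chr16:18776597-18776896, plus strand) held none of the 4 motifs. Apln (chrX:48034804-48035103, minus strand) held the SOX letters 215 bases and the ETS core 113 bases before the start, both on the opposite strand. Robo4 (chr9:37401722-37402021, plus strand) held the ETS core 50 bases before the start.
Clec14a: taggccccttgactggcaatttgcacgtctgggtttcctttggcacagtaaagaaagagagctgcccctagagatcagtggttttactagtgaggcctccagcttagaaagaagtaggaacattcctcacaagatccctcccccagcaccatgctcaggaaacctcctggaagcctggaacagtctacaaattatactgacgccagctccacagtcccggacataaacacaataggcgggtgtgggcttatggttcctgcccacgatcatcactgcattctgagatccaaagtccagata
Cldn5: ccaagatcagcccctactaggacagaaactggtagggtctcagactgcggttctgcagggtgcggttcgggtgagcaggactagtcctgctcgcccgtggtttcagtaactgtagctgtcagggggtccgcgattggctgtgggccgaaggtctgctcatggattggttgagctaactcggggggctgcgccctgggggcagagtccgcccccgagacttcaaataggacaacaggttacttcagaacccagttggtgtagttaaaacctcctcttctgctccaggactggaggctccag
Apln: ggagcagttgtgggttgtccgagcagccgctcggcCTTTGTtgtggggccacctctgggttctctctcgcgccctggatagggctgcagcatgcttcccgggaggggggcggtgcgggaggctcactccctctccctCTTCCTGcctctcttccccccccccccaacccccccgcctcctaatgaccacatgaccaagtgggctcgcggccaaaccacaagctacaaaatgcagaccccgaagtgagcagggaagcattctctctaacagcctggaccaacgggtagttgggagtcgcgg
Robo4: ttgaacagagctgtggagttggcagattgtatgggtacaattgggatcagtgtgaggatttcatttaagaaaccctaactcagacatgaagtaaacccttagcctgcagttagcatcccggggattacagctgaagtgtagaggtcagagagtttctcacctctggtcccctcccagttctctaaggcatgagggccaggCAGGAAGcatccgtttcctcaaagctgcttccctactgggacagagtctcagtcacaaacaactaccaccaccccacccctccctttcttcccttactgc
The absence of these letters says only that they are not in this window, and no match was tested against the age differences.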

How the data were processed

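Whole-pituitary polyA RNA of 4 young and 4 old samples was measured. As stated in the methods of the paper and in notes from the submitters, the authors aligned reads with STAR (2.6.1a) to GRCm38, counted paired-end fragments over Ensembl exons with featureCounts, and deposited FPKM computed with edgeR (3.28.1). CASAVA (1.9) is also named. Neither annotation release nor strand setting is given in the sources used here. Library totals were 15042321 to 20429604 fragments.

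From these FPKM, log2(FPKM + 0.1) was fitted with limma (3.58.1, R 4.3.3), trend and robust off, age as the only term, over the 23498 genes whose mean reached 0.1 FPKM. Fragments were computed back with GENCODE M21 exon lengths (90.3 to 91.4% of low values whole within 0.01). Where that failed, the smallest length giving whole fragments in all libraries was fitted, as for 6 of the 35 genes. Recovered fragments, used for voom and library shares, held 99.95 to 99.96% of each library. Fragment numbers are printed only for annotated lengths. The test was tried on simulated data. The rule for named genes took all 35 genes and allowed, from other lists, genes that passed and the 2 of highest level. Other genes are named where the text says that they were chosen after their values were seen. The members and lists were chosen with earlier results of these data known. The comparison restricted to 5 libraries was added after the data had been seen. Python 3.11.15, numpy 2.4.6, pandas 2.3.3 and matplotlib 3.10.9 were used.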

Additional observations from a re-analysis of the deposited data

Results flagged for a closer look

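In 4 of the 70 groups of 4 libraries (35 genes at 2 ages), 1 library lay far from the other 3 by Dixon's test, and chance flags about 1 in 20 groups. Clec14a was 4.37 FPKM in old library 1 and 4.65 to 4.68 in the other old libraries. Aplnr was 1.76 FPKM in young library 2 and 4.70 to 5.29 in the other young libraries. Apln was 1.97 FPKM in old library 1 and 3.18 to 3.38 in the other old libraries. Cd34 was 1.94 FPKM in old library 3 and 0.920 to 1.07 in the other old libraries.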

How the results depend on the processing

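Among the 35 genes, no called value changed sign under an alternative. For single genes outside them, values under alternatives are not given. Endothelial genes higher in old numbered 1 with the deposited scaling and main filter, 2 with a pseudocount of 1 and with limma's trend and robust options, 3 with a minimum mean of 1 FPKM and with voom, and 0 with no filter, with median-of-ratios scaling, with totals lacking hormone and ribosomal RNA repeat genes, with centring on other endothelial genes, and in the 5 libraries of higher red blood cell signal. Leaving out each library in turn gave 0 to 1. Endothelial genes lower numbered 0, and 1 with voom. Leaving out each library gave 0 to 1, the 1 being Aplnr without young replicate 2. Over all genes, 436 higher and 111 lower became 689 higher with a pseudocount of 1, 263 higher with no filter, 796 higher with a minimum of 1 FPKM, 213 higher and 217 lower with median-of-ratios scaling, 212 and 189 with the reduced totals, 119 and 177 with endothelial centring, 704 higher with trend and robust, 1436 and 356 with voom, and 29 and 31 in the 5 libraries. A library left out gave 64 to 327 higher and 21 to 163 lower. With the replicate number as a block, 0 endothelial genes were called and 4 and 0 of all genes. The numbers do not pair the samples: correlations of same-numbered deviations were 0.037, -0.037, -0.0045 and 0.0064, and of the young libraries only library 1 correlated best with its own number. Median-of-ratios scaling moved the all-gene median from 0.15 to 0.01. The cause of these shifts was not tested. The lowest gene, Sox17, rested on 59 and 29 fragments over 4 libraries each, with a coefficient of variation of 85.9% in old libraries. How far depth limits its test was not tested.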

Other observations

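Genes of blood-brain barrier endothelium, of which 6 were tested, had no call in limma. At an unadjusted p under 0.05, 3 were lower, where 3.79% of all genes were, and 1 was higher, where 18.0% were. The 4 genes were named after their values were seen. Mfsd2a, a lipid transporter, averaged 1.33 ± 0.362 FPKM in young and 0.576 ± 0.212 in old libraries (SD, n = 4 per age). Slc2a1, the glucose transporter, averaged 8.63 ± 0.593 and 6.70 ± 0.214 FPKM, and Itm2a 9.18 ± 1.33 and 5.95 ± 1.31 FPKM. The efflux transporter Abcb1a averaged 0.951 ± 0.166 and 1.47 ± 0.216 FPKM. For each of the 4 the ages did not overlap, as for 13.4% of all genes tested above and 2.06% below, and other cell types of the gland may express them, which was not tested. Of 4 listed genes of activated endothelium, 2 were tested and the others were under the minimum mean of 0.1 FPKM. The adhesion molecule Vcam1 rose from 0.539 ± 0.234 to 1.87 ± 0.647 FPKM (log2 fold change 1.64, limma adjusted p = 0.0482), where 1.86% of all genes tested were called higher. Icam1, the other gene tested, had a log2 fold change of -0.09 (SE 0.20) and was not called. Which cells of the gland gave the Vcam1 signal was not tested. A pair of ligands of the endothelial receptors, also named after their values were seen, had no limma call. Both had all old libraries above all young ones, as for 13.4% of all genes tested. Vegfc averaged 3.63 ± 0.365 and 5.05 ± 0.451 FPKM (limma adjusted p = 0.0745), and Slit2 1.93 ± 0.297 and 2.83 ± 0.258 FPKM (limma adjusted p = 0.0850). Other ligands went the other way. In the same list 3 genes, also named after their values were seen, were lower at an unadjusted p under 0.05 in limma. They were Vegfd, Pgf and Slit3, with log2 fold changes of -0.84, -0.57 and -0.57, and their ages overlapped.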
